A study of Mus musculus with 7 samples.

Results

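Lymph nodes that drain the head were compared with nodes that drain the flank and hind limb, by the antigen receptors of their B cells. The cervical side consisted of 4 single-cell libraries, from deep cervical lymph nodes (dCLN) and superficial cervical lymph nodes (sCLN), and the inguinal side of 2, from inguinal lymph nodes (iLN). A cell was a barcode with exactly 1 productive heavy chain contig. This gave 17381 cells in the 6 libraries, 13074 cervical and 4307 inguinal, of 19869 in the whole series of 7 libraries. The remaining library mixes all nodes and both genotypes, and its cells entered no comparison.

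Each node was sampled in wild-type (WT) and in 5xFAD mice, all females aged 10 to 11 months. The 5xFAD line models Alzheimer's disease: its transgenes are driven by the neuronal Thy1 promoter, and amyloid deposits form in the brain. Each combination of node and genotype is 1 library, in which hashed cell suspensions were pooled, and the number of animals behind a library is not given in the sources used here. The comparison was therefore made within each genotype, as the equal-weight mean of dCLN and sCLN minus the iLN, and then checked for agreement of both genotypes. WT cells numbered 3374 from dCLN, 3440 from sCLN and 2200 from iLN. 5xFAD cells numbered 3904 from dCLN, 2356 from sCLN and 2107 from iLN.

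Lymph nodes hold mostly naive B cells, which carry an unmutated receptor with IgM and IgD constant regions made from 1 transcript by splicing. After meeting antigen, a B cell can replace its constant region by class switch recombination, which yields IgG1, IgG2b, IgG2c, IgG3, IgA or IgE, and can mutate its V regions through the enzyme activation-induced deaminase. The V, D and J segments are joined before that, in the bone marrow, before the cell reaches a node.

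The 6 libraries held 99906 to 312484 immunoglobulin UMIs, with a median of 9 to 13 heavy chain UMIs per cell. Technical measures moved with the node. Reads per UMI were 26.0 to 67.8 in the cervical and 74.0 and 114 in the inguinal libraries. Barcodes with more than 1 heavy chain, left out as possible doublets, were 3.64% to 5.62% of barcodes with a heavy chain in the cervical libraries and 2.78% (WT) and 2.59% (5xFAD) in the inguinal ones. Their part in the results below was not tested. Any pair of the 6 libraries had 4 to 35 cell barcodes in common, and 0 of these had the same heavy chain junction in both.

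Shares are given with exact Clopper-Pearson 95% intervals, which cover counting error only, since cells of 1 library are not replicates. Over libraries, 21 measures were tested by an exact two-sided permutation of the node label within genotype. Its 9 arrangements cannot give a p below 0.111, so no measure could pass 0.05. Of the 21 measures, 7 reached that smallest p, and after Benjamini-Hochberg adjustment over all 21 the smallest adjusted p in this exact test was 0.333. Differences below are hence described by their size, their counting intervals and the number of cervical libraries on one side of the iLN of their own genotype.

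Class-switched cells had a larger share in all 4 cervical libraries than in the iLN of the same genotype, and most of the excess was in IgG2b and IgG2c. Switched cells numbered 136 of 3314 cells with a constant region call in the WT dCLN, 144 of 3404 in the WT sCLN and 31 of 2167 in the WT iLN. The 5xFAD dCLN had 159 of 3866, its sCLN 68 of 2343 and its iLN 25 of 2084. The cervical mean was 2.91 times the inguinal share in WT and 2.92 times in 5xFAD. As a difference, the WT excess was 2.74 percentage points (1.99 to 3.43) and the 5xFAD excess 2.31 (1.59 to 2.97), with an exact permutation p of 0.111. IgG2b and IgG2c together differed by 2.23 percentage points in WT (1.63 to 2.77) and 1.40 in 5xFAD (0.817 to 1.93). With each clone counted once the mean difference over genotypes was 2.09 instead of 2.52 percentage points.

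IgG2c, the C57BL/6 form of the IgG2a class that is typical of antiviral and interferon-driven responses, had the largest ratio among the subclasses present in the iLN. Its constant region gene IGHG2C lies at chr12:113285325-113288932 (GRCm38, minus strand). IgG2c was the call of 55 cells (1.66%) in the WT dCLN, 49 (1.44%) in the WT sCLN and 5 (0.231%) in the WT iLN. The 5xFAD counts were 36 dCLN cells (0.931%), 21 sCLN cells (0.896%) and 3 iLN cells (0.144%). All 4 cervical libraries lay above the iLN of their genotype, each with an interval apart from it. The ratio of the cervical mean to the iLN was 6.72 in WT and 6.35 in 5xFAD, and the single libraries ranged from 6.23 to 7.19. The difference was 1.32 percentage points in WT (0.906 to 1.69) and 0.770 in 5xFAD (0.417 to 1.09), with an exact permutation p of 0.111. Because the iLN values rest on 5 and 3 cells, the ratios are imprecise.

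IgG2b, encoded by IGHG2B (chr12:113302965-113307933), was the call of 48 cells (1.45%), 47 (1.38%) and 11 (0.508%) in the WT dCLN, sCLN and iLN. Those of 5xFAD mice were 61 cells (1.58%), 22 (0.939%) and 13 (0.624%) in the same order. Both genotypes thus had more IgG2b in the cervical nodes, by 2.79 times in WT and 2.02 times in 5xFAD, although the interval of the 5xFAD sCLN overlapped that of its iLN. IgG2b and IgG2c together made up 2.51% to 3.11% of dCLN cells, 1.84% to 2.82% of sCLN cells and 0.738% to 0.768% of iLN cells.

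IgG1, encoded by IGHG1 (chr12:113325240-113330523) and typical of T helper type 2 responses, did not follow the node in the same way in both genotypes. In WT mice IgG1 was called in 13 dCLN cells (0.392%), 34 sCLN cells (0.999%) and 11 iLN cells (0.508%), so that the dCLN lay below and the sCLN above the iLN. In 5xFAD mice it was the call of 32 dCLN cells (0.828%), 19 sCLN cells (0.811%) and 7 iLN cells (0.336%), and both cervical libraries lay above. The cervical excess was 0.188 percentage points in WT (-0.249 to 0.538) and 0.483 in 5xFAD (0.0724 to 0.830), at an exact permutation p of 0.444. Every single cervical interval overlapped that of its iLN.

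IgA, the class of mucosal secretions, was rare, with a higher share in the deep than in the superficial cervical library of each genotype and overlapping intervals between them. It was the call of 17 cells (0.513%) in the WT dCLN, 9 (0.264%) in the WT sCLN and 4 (0.185%) in the WT iLN. In 5xFAD mice it was the call of 22 dCLN cells (0.569%), 4 sCLN cells (0.171%) and 2 iLN cells (0.0960%). Only the 5xFAD dCLN had an interval apart from that of its iLN, and the exact permutation p was 0.222. IgG3, a class linked to T-independent antigens, was the call of 3, 5, 8 and 2 cells in the WT dCLN, WT sCLN, 5xFAD dCLN and 5xFAD sCLN. It was not seen in either iLN, which allows a share of up to 0.138% in WT and 0.144% in 5xFAD. The cervical shares were 0.0905% and 0.147% in the WT dCLN and sCLN and 0.207% and 0.0854% in the 5xFAD ones, so that 4 of 4 lay above 0, each with an interval overlapping that of its iLN. The difference was 0.119 percentage points in WT (-0.0621 to 0.250) and 0.146 in 5xFAD (-0.0440 to 0.296), with an exact permutation p of 0.222. IgE and IgG2a were called in 0 cells of all 6 libraries.

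**Figure D1:**
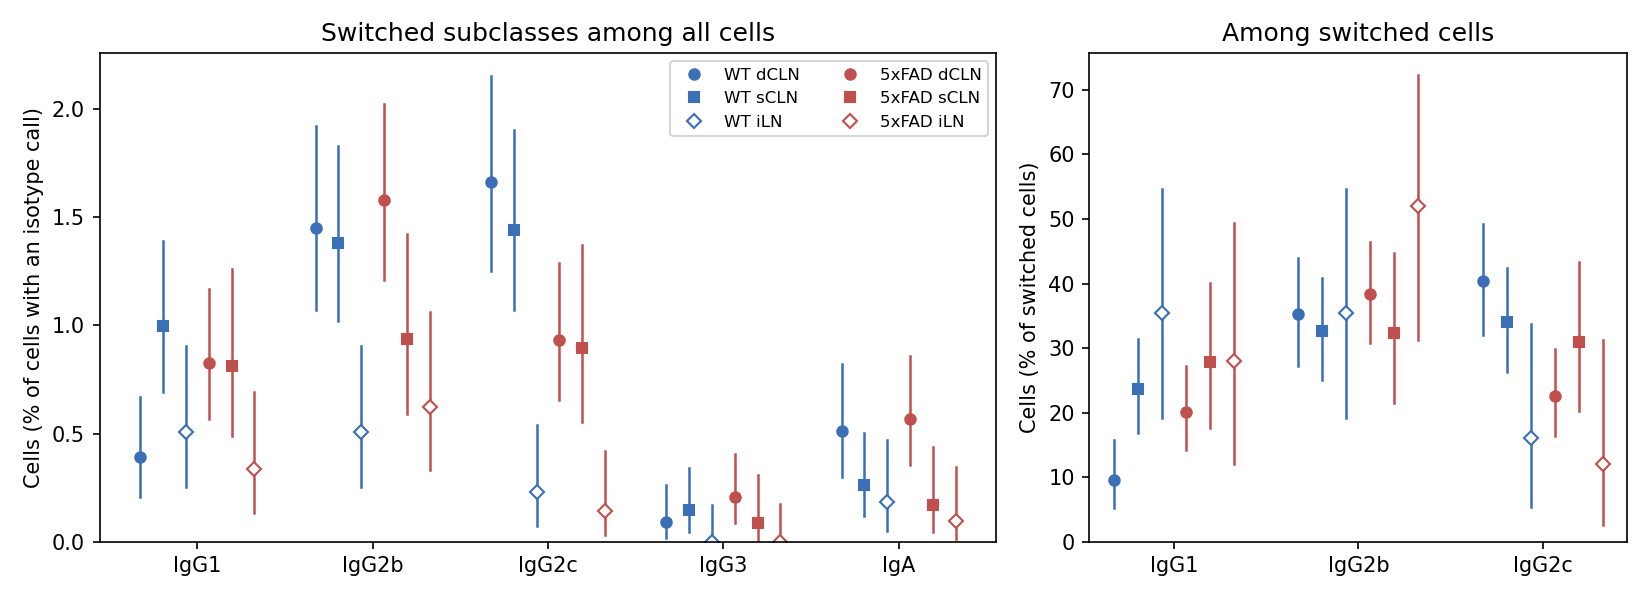
Share of each switched subclass among cells with an isotype call (left, %) and of IgG1, IgG2b and IgG2c among switched cells (right, %), 1 point per library with its exact 95% interval; blue is WT, red is 5xFAD, filled points are cervical and open points inguinal. IgG2c lies between 0.896% and 1.66% in the cervical libraries and at 0.231% and 0.144% in the inguinal ones.

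Within the switched cells, IgG2c also had a larger share in the cervical libraries, on few inguinal cells. IgG2c was 40.4% (32.1 to 49.2) and 34.0% (26.3 to 42.4) of switched cells in the WT dCLN and sCLN against 16.1% (5.45 to 33.7) in the WT iLN. In 5xFAD mice it was 22.6% (16.4 to 29.9) and 30.9% (20.2 to 43.3) against 12.0% (2.55 to 31.2). All 4 cervical libraries lay above, with overlapping intervals, and the exact permutation p was 0.111. The interval of the difference held 1 sign in WT, at 21.1 percentage points (2.62 to 33.4), and both signs in 5xFAD, at 14.8 (-5.42 to 26.6).

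IgG1 had the opposite order among switched cells. It was 9.56% and 23.6% in the WT dCLN and sCLN against 35.5% in the WT iLN, and 20.1% and 27.9% in the 5xFAD dCLN and sCLN against 28.0% in the 5xFAD iLN. The WT dCLN interval was apart from that of the iLN, the 5xFAD sCLN differed from its iLN by a ratio of 0.998 only, and the exact permutation p was 0.222. The sign of the 5xFAD IgG1 difference turned with at least 3 heavy chain UMIs per cell, so its order is not stable in 5xFAD. The IgG2b share of switched cells was 32.4% to 38.4% in the cervical libraries against 35.5% (WT) and 52.0% (5xFAD) in the iLN. With at least 3 heavy chain UMIs per cell, the IgG2b share of the WT iLN was 30.8%, below the 34.5% and 31.9% of the WT dCLN and sCLN, so its order is not stable in WT.

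Calls of IgD and IgM, which naive cells express together, lay on opposite sides of the iLN in the 2 genotypes as counted. After weighting for UMIs this held for the dCLN only. Of unswitched cells, 27.9% in the WT dCLN and 23.5% in the WT sCLN were called IgD, against 21.8% in the WT iLN. In 5xFAD mice 16.4% in the dCLN and 19.4% in the sCLN were called IgD, against 20.5% in the iLN. The cervical minus inguinal difference was 3.87 percentage points in WT (1.77 to 5.92) and -2.64 in 5xFAD (-4.70 to -0.620), at an exact permutation p of 0.889. With all libraries weighted to 1 distribution of heavy chain UMIs the shares were 24.9%, 22.8% and 21.7% in the WT dCLN, sCLN and iLN, and 19.3%, 21.2% and 20.0% in the 5xFAD ones. The cervical minus inguinal difference was then 2.12 percentage points in WT and 0.203 in 5xFAD, so that the 5xFAD sign turned.

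Unswitched cells with V mutations, the phenotype of IgM memory and of germinal centre cells before switching, had larger shares in the cervical libraries of both genotypes, by 2.04 times in WT and 1.86 times in 5xFAD. A cell was counted as mutated where at least 1% of its aligned heavy chain V bases differed from the assigned germline gene. In WT mice 22 of 3177 dCLN cells (0.692%, 0.434 to 1.05), 21 of 3256 sCLN cells (0.645%, 0.400 to 0.984) and 7 of 2134 iLN cells (0.328%, 0.132 to 0.675) passed. In 5xFAD mice 19 of 3706 dCLN cells (0.513%, 0.309 to 0.799), 13 of 2274 sCLN cells (0.572%, 0.305 to 0.976) and 6 of 2057 iLN cells (0.292%, 0.107 to 0.634) passed. All 4 cervical shares exceeded that of their iLN, but every interval overlapped. The difference was 0.341 percentage points in WT (-0.0490 to 0.655) and 0.250 in 5xFAD (-0.131 to 0.559), with an exact permutation p of 0.111.

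The 4 cervical libraries also stayed above the iLN of their genotype at other mutation thresholds. These are nested cuts of the same cells and no independent check. At 2% the inguinal shares rest on fewer cells than the 7 (WT) and 6 (5xFAD) at 1%. At 0.5% of V bases the shares were 1.01% and 0.952% against 0.656% in WT and 0.783% and 0.704% against 0.438% in 5xFAD. At 2% they were 0.346% and 0.215% against 0.187% in WT and 0.189% and 0.176% against 0.0972% in 5xFAD, where the mean difference over genotypes fell from 0.296 to 0.0892 percentage points and the exact permutation p was 0.222. Of the 88 mutated unswitched cells, 84 were called IgM and 4 IgD. These 4 were in WT cervical libraries, 2 in the dCLN and 2 in the sCLN.

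The paired light chains of these cells carried mutations far more often than those of other unswitched cells, a measure that played no part in choosing the cells. Among mutated unswitched cells with exactly 1 light chain, the light chain V was also mutated at 1% or more in 8 of 19 (WT dCLN), 6 of 20 (WT sCLN), 3 of 6 (WT iLN), 9 of 17 (5xFAD dCLN), 3 of 10 (5xFAD sCLN) and 4 of 6 (5xFAD iLN). These are 30.0% to 66.7%, with the cervical libraries at 30.0% to 52.9% and the inguinal ones at 50.0% and 66.7% on 6 cells each. In unswitched cells under 1%, light chain mutation was found in 0.106% to 0.717%, and in mutated switched cells in 64.1% to 82.1%. Mismatches present in at least 50% of the unswitched cells of a light chain V gene were left out of this count, a step chosen after the data were seen.

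**Figure D2:**
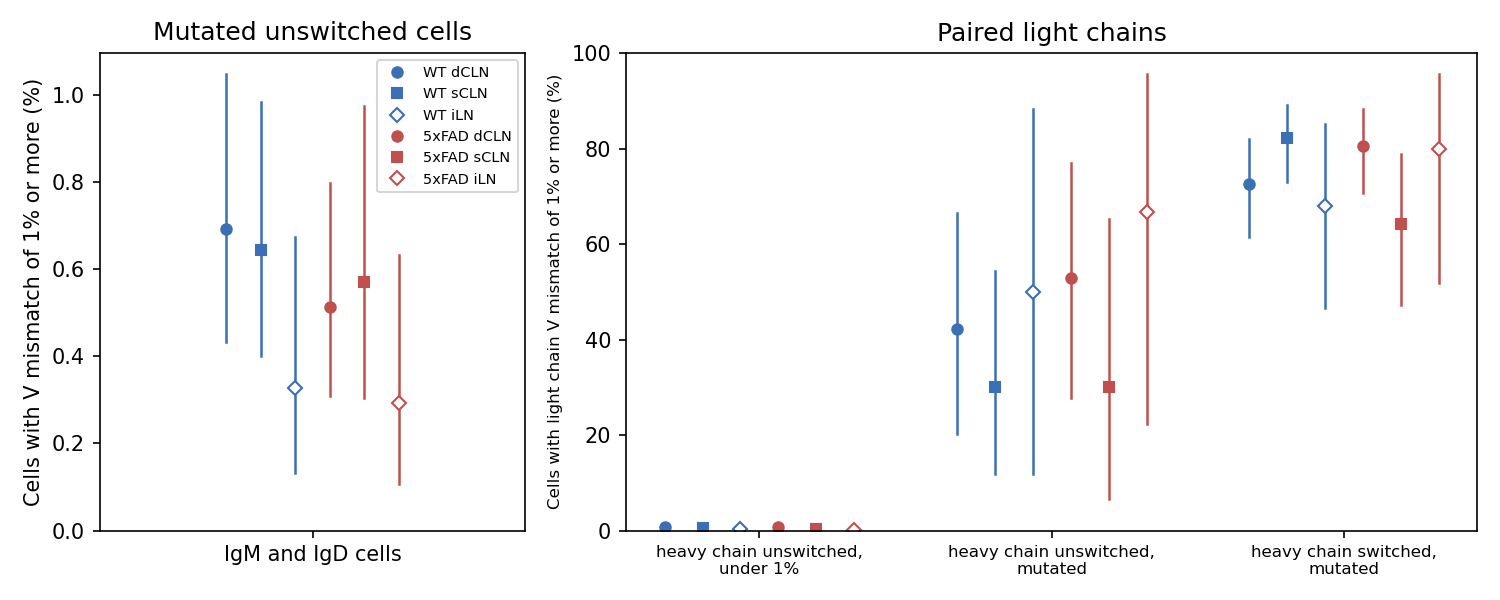
Left, share of IgM and IgD cells with V mismatch of 1% or more (%), 1 point per library with its exact 95% interval; right, share of cells whose paired light chain V is mutated at 1% or more (%), by the class of the heavy chain. The cervical points on the left lie between 0.513% and 0.692% and the inguinal ones at 0.328% and 0.292%, and on the right the mutated unswitched cells of all 6 libraries lie between 30.0% and 66.7%.

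The mismatches of the 75 cervical cells were spread over V regions much as in switched cells. The first and second complementarity determining regions (CDR1 and CDR2), which contact antigen, held 27.1% of 451 mismatches but 16.5% of the V bases. In mutated cervical switched cells they held 27.0% of the mismatches. Motifs favoured by activation-induced deaminase, searched as the last base of AAC, AGC, TAC or TGC and, for the other strand, the first base of GTT, GCT, GTA or GCA, held 41.9% of the cervical mismatches and 14.0% of the bases. In the 13 inguinal cells, CDRs held 18.8% of 80 mismatches and the motifs 30.0%, against 28.6% and 38.3% in mutated inguinal switched cells. These are descriptions over mismatches that share cells, with no test, chosen after the data were seen.

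The heavy chain V genes of the 88 cells were led by IGHV1-26 and IGHV6-3 with 9 cells each, IGHV1-53 with 7, IGHV2-2 with 6 and IGHV4-1 with 5. Relative to their use in all unswitched cells, IGHV1-66 (4.40%), IGHV4-1 (3.94%) and IGHV6-3 (3.90%) had the largest mutated shares among V genes with 3 or more such cells, whereas IGHV1-26 was at 0.871%. Of the 9 IGHV1-26 cells 6 were in the WT dCLN, and of the 4 IGHV1-66 cells 3 were in the 5xFAD sCLN. The IGHV4-1 cells were 3 in the WT sCLN and 2 in the WT iLN.

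Some mutated unswitched cells belonged to the same clone, defined by the same V and J genes and junction length and a junction distance of at most 0.15. The heavy chain junctions of all such pairs are shown because they tell identical junctions from diverged ones, with capitals at bases that differ between the cells of a pair.
WT dCLN, IGHV1-26, IGHJ2, 12 mismatches: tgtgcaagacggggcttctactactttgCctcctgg
WT dCLN, IGHV1-26, IGHJ2, 10 mismatches: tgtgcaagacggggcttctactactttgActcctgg
WT dCLN, IGHV1-26, IGHJ4, 10 and 3 mismatches: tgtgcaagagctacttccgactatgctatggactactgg
WT dCLN, IGHV6-3, IGHJ3, 4 mismatches: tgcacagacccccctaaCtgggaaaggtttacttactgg
WT dCLN, IGHV6-3, IGHJ3, 5 mismatches: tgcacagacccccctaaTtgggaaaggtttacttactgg
WT sCLN, IGHV4-1, IGHJ1, 4 mismatches in each cell: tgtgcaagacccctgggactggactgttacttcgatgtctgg
WT iLN, IGHV4-1, IGHJ1, 8 mismatches in each cell: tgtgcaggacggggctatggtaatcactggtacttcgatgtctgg
5xFAD dCLN, IGHV1-53, IGHJ2, 14 mismatches: tgtTcaagaggGactgggacCgactactgg
5xFAD dCLN, IGHV1-53, IGHJ2, 3 mismatches: tgtGcaagaggAactgggacTgactactgg
5xFAD sCLN, IGHV1-66, IGHJ2, 3 mismatches in each cell: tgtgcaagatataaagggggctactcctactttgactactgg

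The pairs fell into 2 kinds. In the WT sCLN and WT iLN pairs of IGHV4-1 and the 5xFAD sCLN pair of IGHV1-66, both cells had the same junction and the same number of V mismatches. In the other pairs the number of mismatches differed between the cells. Light chains differed in V gene within the WT dCLN pair of IGHV1-26 and IGHJ4 (IGKV17-121 and IGKV2-137) and within the 5xFAD dCLN pair (IGKV6-23 and IGKV6-13). The grouping used the heavy chain alone. No pair was found in the 5xFAD iLN.

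A further pair of the WT sCLN had a relative in the WT dCLN, and these 3 IgM cells are shown because they have mismatches in common across both cervical nodes. All 3 used IGHV1-53 (chr12:115158403-115158835), IGHJ2 and IGKV3-5, with 11 and 7 V mismatches in the sCLN cells and 4 in the dCLN cell. The stretch from CDR1 to CDR2 follows, 99 bases with capitals at mismatches to the germline.
Germline: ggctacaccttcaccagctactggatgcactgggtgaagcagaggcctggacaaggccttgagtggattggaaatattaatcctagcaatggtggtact
WT sCLN, first cell: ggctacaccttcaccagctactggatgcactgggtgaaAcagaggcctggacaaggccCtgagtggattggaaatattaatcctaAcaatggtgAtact
WT sCLN, second cell: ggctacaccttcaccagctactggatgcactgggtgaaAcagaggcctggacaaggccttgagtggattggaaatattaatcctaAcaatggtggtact
WT dCLN cell: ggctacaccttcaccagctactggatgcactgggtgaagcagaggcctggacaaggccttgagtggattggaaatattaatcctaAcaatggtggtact
Their junctions, with capitals at the bases that differ among the 3 cells, were these.
WT sCLN, both cells: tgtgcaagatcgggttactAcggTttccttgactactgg
WT dCLN cell: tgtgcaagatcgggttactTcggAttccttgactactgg

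The sCLN cells had 6 V mismatches in common, and all 3 cells had 3 in common, 1 of them within the printed stretch. The sCLN junction differed from the dCLN junction at 2 of 39 bases, the D calls differed (IGHD1-1 and IGHD2-3), and the light chain junctions were not all identical. In the same search, the IgD cell of IGHV1-26 and IGHJ4 with IGKV2-137 and 3 mismatches in the WT dCLN had the same heavy junction as 9 unmutated IgM cells of the WT sCLN and 2 of the WT iLN. The search also paired a mutated IGHV6-3 cell of the WT iLN with an unmutated WT dCLN cell at 5 junction differences. It paired a mutated IGHV1-15 cell of the 5xFAD dCLN with an unmutated cell of the WT sCLN at 6, and cells of different genotypes come from different animals, so a match alone does not show a common origin. Mutated unswitched cells sharing a clone with switched cells were seen in the 5xFAD dCLN, 6 of 19, and in 0 of the mutated unswitched cells of the other 5 libraries, a difference that was not tested.

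The share of mutated cells among switched cells did not follow the node. It was 70.6% (dCLN), 69.4% (sCLN) and 80.6% (iLN) in WT and 63.5%, 73.5% and 64.0% in 5xFAD, with differences of -10.6 percentage points (-23.9 to 8.24) and 4.53 (-14.9 to 26.9).

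Heavy chain V gene families were used at nearly the same shares in cervical and inguinal nodes. The large IGHV1 family, in the D-distal part of the locus, made up 56.7% and 58.7% of WT dCLN and sCLN cells against 57.9% in the iLN, and 58.1% and 59.1% of 5xFAD cells against 57.7%. The differences were -0.154 percentage points in WT (-2.54 to 2.25) and 0.923 in 5xFAD (-1.55 to 3.41), at an exact permutation p of 0.667. The D-proximal families IGHV2 and IGHV5 together were at 14.8% to 16.7% in the cervical and 16.5% (WT) and 15.2% (5xFAD) in the inguinal libraries, with an exact permutation p of 0.444. Taken singly, IGHV2 was above the iLN in all 4 cervical libraries (6.83% to 8.09% against 7.14% and 6.41%) and IGHV5 below in all 4 (7.94% to 9.01% against 9.41% and 8.78%), with overlapping intervals throughout.

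Of the smaller families, IGHV4 and IGHV6 were above the iLN in all 4 cervical libraries and IGHV12 and IGHV13 below, all with overlapping intervals. The order of IGHV12 rests on 1 and 2 cells against 2 in WT and 1 and 1 against 1 in 5xFAD. IGHV7 was the one family with a library apart from its iLN, the WT dCLN at 1.45% (1.08 to 1.92) against 0.636% (0.348 to 1.07). In 5xFAD mice IGHV7 was at 0.871% and 0.891% against 0.949%, so the genotypes did not agree.

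Single V genes were compared where their mean share over the 6 libraries was 0.5% or more, which held for 57 of 96 IGHV genes. A gene was taken as different where the cervical mean was at least 1.5-fold above or below the iLN in both genotypes in the same direction. Of the 57 IGHV genes 0 passed in either direction (0%), while in WT taken alone 4 were higher (7.02%) and 1 lower (1.75%), and in 5xFAD taken alone 3 were higher (5.26%) and 2 lower (3.51%). All 4 cervical libraries lay above the iLN for 6 genes (10.5%) and below it for 9 (15.8%). Both cervical libraries of a genotype were set against the same iLN. Without any order by node, all 4 would lie on a given side in 1 of the 9 arrangements. The shares are near that level, which also applies to the light chain V genes and D gene calls below.

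The most used gene, IGHV1-26 (chr12:114788372-114788805), was at 5.54% and 6.37% in the WT dCLN and sCLN against 6.95% in the iLN, and at 6.38% and 5.86% in 5xFAD against 6.41%. IGHV9-3, IGHV3-6, IGHV8-8 and IGHV1-64 followed, at 2.67% to 4.74% in all libraries, with cervical to inguinal ratios of 0.888 to 1.19. Among the 6 genes higher in all 4 cervical libraries, IGHV4-1 (chr12:113948282-113948796) had the largest mean log2 ratio, 0.61. It was used by 24 cells (0.711%) and 36 (1.05%) against 12 (0.545%) in WT and by 39 (0.999%) and 15 (0.637%) against 12 (0.570%) in 5xFAD. IGHV1-42, IGHV1-54 and IGHV1-75 came next, with mean log2 ratios of 0.47, 0.34 and 0.27.

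On the other side, IGHV5-16 (chr12:113838526-113839010) had the most negative mean log2 ratio among genes below the iLN in all 4, at -0.51. It was used by 1.01% and 0.872% of cervical cells against 1.41% in WT and by 0.922% and 0.891% against 1.23% in 5xFAD. IGHV1-74, IGHV14-1 and IGHV1-15 followed at -0.44, -0.37 and -0.30. The intervals of all these named genes overlapped those of their iLN.

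V genes known from B-1 cells, a self-renewing lineage that makes natural antibody, were rare in all nodes. IGHV11-2 and IGHV12-3, which are used for phosphatidylcholine binding, together numbered 3 and 6 cells against 5 in WT and 4 and 3 against 1 in 5xFAD. IGHV7-1, of the phosphorylcholine response, was at 0.356% and 0.233% against 0.273% in WT and 0.179% and 0.382% against 0.237% in 5xFAD. With IGHV4-1 added, the list was at 1.15% to 1.45% in the cervical libraries and at 1.05% (WT) and 0.854% (5xFAD) in the inguinal ones, with overlapping intervals, and IGHV4-1 supplied most of its cells. IGHV1-72, which with lambda 1 light chains dominates responses to the hapten nitrophenyl in C57BL/6 mice, was at 2.33% to 2.82% in the cervical and 2.68% and 2.80% in the inguinal libraries. It was paired with IGLV1 in 4 and 1 cells against 2 in WT and in 2 and 1 cells against 0 in 5xFAD.

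The ratios of the single genes showed no common order in the genotypes. Across the 57 IGHV genes, which share libraries and sum to 1 total per library, the correlation of the log2 ratios of WT and 5xFAD was -0.02, and 27 had the same sign. For the 57 light chain V genes the correlation was -0.05 with 30 of the same sign, and for 20 D gene calls -0.07 with 10. The spread of the log2 ratios was 0.32 in WT and 0.36 in 5xFAD for IGHV genes (SD over genes), where counting error alone gives 0.34 and 0.35. For light chain V genes it was 0.46 and 0.39 against 0.35 and 0.36, and for D gene calls 0.31 and 0.46 against 0.35 and 0.37. The Morisita overlap of IGHV use, which is 1 for samples of 1 distribution, was 0.993 to 1.000 between cervical libraries and 0.997 to 1.002 between cervical and inguinal ones. For light chain V genes it was 0.989 to 1.000 and 0.986 to 1.002, and 0.988 between the inguinal libraries. These ranges take pairs within and across genotypes. Within a genotype, the light chain V overlap of cervical and inguinal libraries was 0.994 to 1.002.

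**Figure D3:**
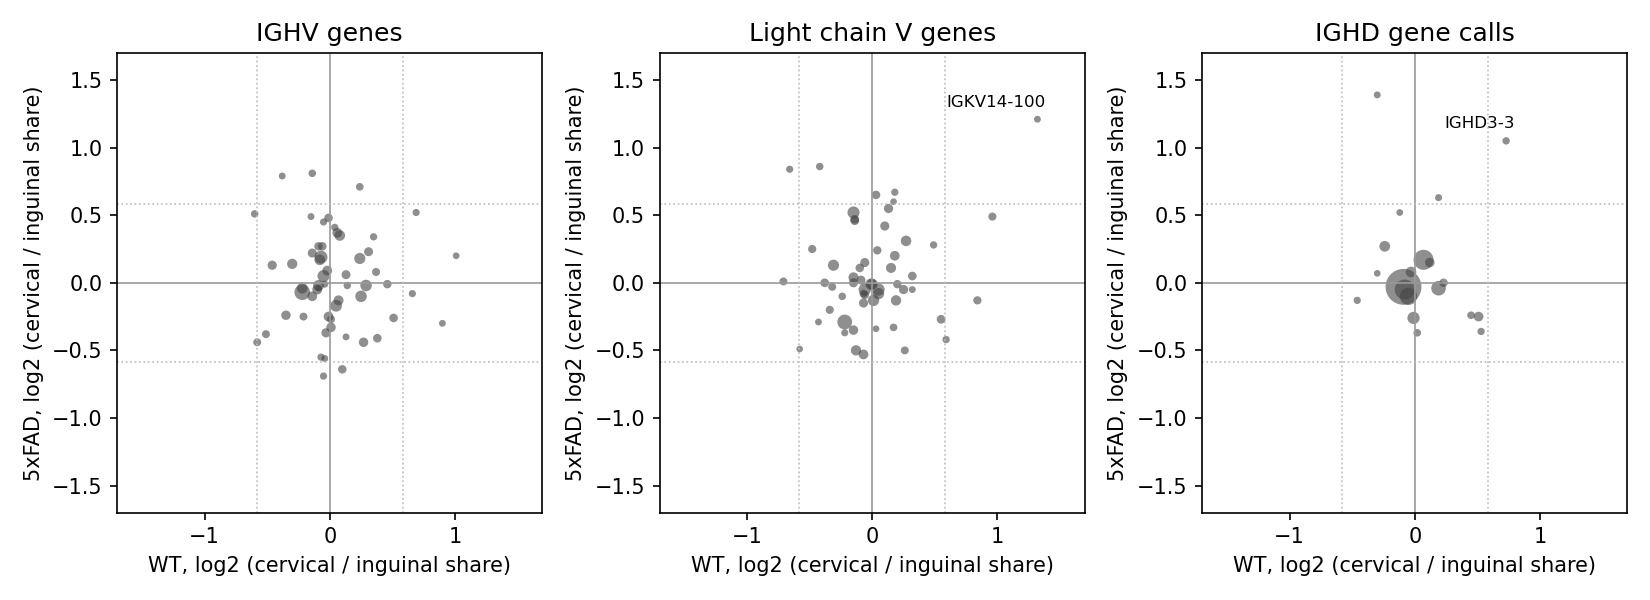
Log2 ratio of the cervical mean share to the inguinal share in WT (x axis) and 5xFAD (y axis), 1 point per gene or joint gene call, with point size growing with the mean share; dotted lines mark 1.5-fold. IGKV14-100 and IGHD3-3 are past the lines in both genotypes, and 0 of the 57 IGHV genes are. The light chain V gene IGKV6-20, at 2.11 in WT and -0.86 in 5xFAD, lies outside the plotted range.

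Light chain use was compared in cells with exactly 1 productive light chain. Of 57 light chain V genes at 0.5% or more, 1 passed 1.5-fold upwards in both genotypes (1.75%) and 0 downwards (0%). In WT taken alone 5 were higher (8.77%) and 2 lower (3.51%), and in 5xFAD taken alone 6 were higher (10.5%) and 1 lower (1.75%). The gene that passed in both was IGKV14-100 (chr6:68519012-68519477), with cervical to inguinal ratios of 2.49 in WT and 2.31 in 5xFAD. It was used by 28 cells (0.935%, 0.622 to 1.35) and 18 (0.571%, 0.339 to 0.901) in the WT dCLN and sCLN against 6 (0.302%, 0.111 to 0.656) in the iLN. In 5xFAD mice it was used by 23 cells (0.649%, 0.412 to 0.973) and 17 (0.788%, 0.460 to 1.26) against 6 (0.311%, 0.114 to 0.675). All 4 cervical shares were above their iLN with overlapping intervals. The gene had the largest mean log2 ratio of the 57, so its share carries no test. In WT alone the largest ratio was that of IGKV6-20, 4.32, with 43 cells (1.44%) and 37 (1.17%) against 6 (0.302%). Its 5xFAD ratio was 0.551, with 21 cells (0.593%) and 18 (0.834%) against 25 (1.30%), so the genotypes did not agree.

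All 4 cervical libraries lay above the iLN for 7 light chain V genes (12.3%) and below it for 7 (12.3%). After IGKV14-100, IGKV3-4 (chr6:70671788-70672377) was next among those above, at 1.30% and 1.24% against 0.654% in WT and 1.61% and 1.16% against 0.984% in 5xFAD. IGKV9-124 followed with ratios of 1.13 and 1.60. The most negative mean log2 ratio was that of IGLV2, -0.53, with 0.401% and 0.476% against 0.654% in WT and 0.423% and 0.464% against 0.622% in 5xFAD. IGKV4-80 and IGKV4-59 followed at -0.36 and -0.32. The most used gene, IGKV10-96 (chr6:68631963-68632442), was at 5.11% to 5.29% in the cervical libraries and at 6.04% (WT) and 6.42% (5xFAD) in the inguinal ones, with overlapping intervals. IGKV1-117 and IGLV1 had ratios between 0.958 and 1.04.

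Lambda light chains, a minor class in mice, did not differ by node beyond counting error. They were in 4.51% and 5.11% of WT dCLN and sCLN cells against 4.88% in the iLN, and in 4.04% and 4.50% of 5xFAD cells against 4.66%. The lambda difference was -0.0740 percentage points in WT (-1.24 to 1.00) and -0.396 in 5xFAD (-1.56 to 0.680), with an exact permutation p of 0.444.

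The use of kappa J genes, which reflects how often a kappa locus was rearranged again, was close between nodes, and for all 4 functional kappa J genes every single cervical interval overlapped that of its iLN. The difference between the genotypes was not tested. IGKJ1, the J gene nearest to the V genes, was at 29.9% and 28.7% of kappa cells against 31.8% in WT, a difference of -2.53 percentage points (-4.97 to -0.114). In 5xFAD it was at 28.5% and 29.2% against 28.8%, a difference of 0.0916 (-2.37 to 2.51), and the exact permutation p was 0.333. IGKJ4 was at 15.2% and 15.7% against 13.0% in WT, a difference of 2.43 (0.587 to 4.20), and at 13.5% and 14.6% against 14.0% in 5xFAD, a difference of 0.0757 (-1.84 to 1.92). IGKJ5, the J gene farthest from the V genes, was at 24.9% and 24.5% against 26.2% in WT and 29.1% and 25.4% against 27.8% in 5xFAD, with an exact permutation p of 0.444. IGKJ2 was at 28.9% to 31.2% in the cervical and 29.0% and 29.5% in the inguinal libraries. Distal kappa V families (IGKV1, IGKV2, IGKV9, IGKV14 and IGKV17) differed by 0.197 percentage points in WT (-2.14 to 2.49) and 0.938 in 5xFAD (-1.31 to 3.13).

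**Figure D4:**
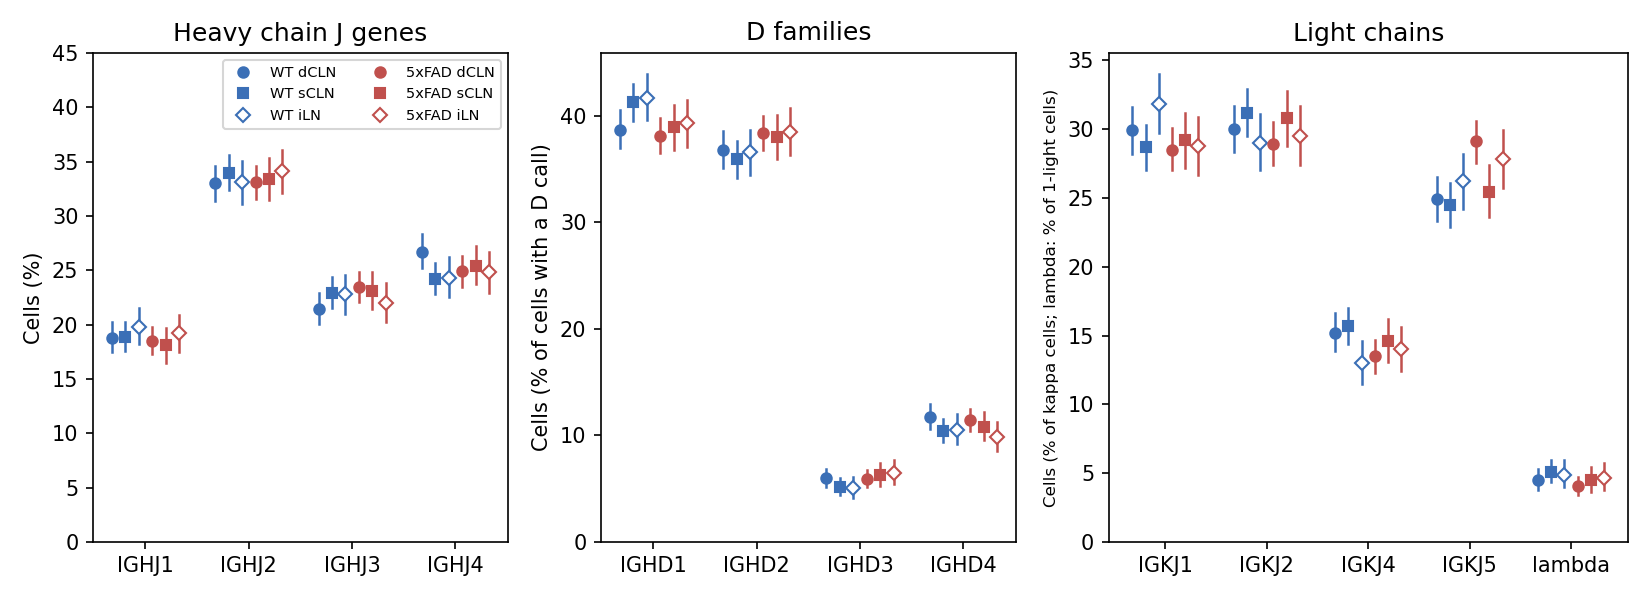
Share of cells by heavy chain J gene (left, % of cells), D family (middle, % of cells with a D call) and kappa J gene or lambda class (right, % of kappa cells, and for lambda % of cells with 1 light chain), 1 point per library with its exact 95% interval. IGHJ1 is between 18.1% and 18.9% in the filled cervical points and at 19.8% and 19.2% in the open inguinal ones.

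Heavy chain J genes were used nearly alike. IGHJ1 (chr12:113429781-113429833) was below the iLN in all 4 cervical libraries, at 18.8% and 18.9% against 19.8% in WT and 18.5% and 18.1% against 19.2% in 5xFAD. The differences of -0.960 percentage points (-2.92 to 0.945) and -0.861 (-2.86 to 1.09) were within counting error, with an exact permutation p of 0.111. IGHJ4 was at 26.7% and 24.2% against 24.3% in WT and at 24.9% and 25.4% against 24.8% in 5xFAD. IGHJ2, the most used, was at 33.0% to 34.0% in the cervical and 33.1% and 34.1% in the inguinal libraries, and IGHJ3 at 21.4% to 23.5% and 22.8% and 22.0%.

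D segments form the centre of the heavy chain junction, and a D gene was called in 89.6% to 90.5% of cells. The IGHD1 family was below the iLN in all 4 cervical libraries, at 38.7% and 41.3% against 41.7% in WT and 38.1% and 38.9% against 39.3% in 5xFAD. Its differences of -1.74 percentage points (-4.26 to 0.769) and -0.759 (-3.35 to 1.81) were within counting error, with an exact permutation p of 0.333. The IGHD2 family was at 35.9% to 38.4% against 36.6% (WT) and 38.5% (5xFAD). IGHD4 was at 10.4% to 11.7% against 10.5% and 9.87%, and IGHD3 at 5.18% to 6.24% against 5.07% and 6.46%.

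Of 20 D gene calls at 0.5% or more, 1 passed 1.5-fold upwards in both genotypes (5.00%), 0 downwards (0%), 1 upwards in WT taken alone (5.00%) and 3 in 5xFAD taken alone (15.0%), and 2 each lay above or below the iLN in all 4 cervical libraries (10.0%). The call that passed was IGHD3-3, with 33 cells (1.09%) and 28 (0.901%) against 12 (0.603%) in WT and 36 (1.02%) and 20 (0.939%) against 9 (0.473%) in 5xFAD, with overlapping intervals. The calls rest on short matches. Over the 138 cells the D alignment had a median of 6 bases, and 14 cells had 8 or more. By contrast IGHD1-1 calls had a median of 15 aligned bases. With alignments of at least 8 bases IGHD3-3 was no longer among the genes compared, and with the sCLN alone it did not pass. The germline segments of the longest and the shortest of the most used D genes show how much sequence a call can draw on, from the GENCODE M21 annotation of GRCm38.
IGHD1-1, chr12:113482170-113482192: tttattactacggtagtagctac
IGHD4-1, chr12:113430528-113430538: ctaactgggac

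IGHD1-1, the most used D gene, was at 34.8% and 37.3% against 38.3% in WT and at 35.1% and 35.9% against 36.2% in 5xFAD, below the iLN in all 4. IGHD2-3 was the other gene below in all 4, at 7.32% to 8.06% against 8.24% and 8.25%, and joint calls of IGHD1-1, IGHD2-1 and IGHD2-10 were above in all 4. IGHD4-1 had ratios of 1.05 and 1.13.

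Heavy chain junctions had nearly the same mean length in both kinds of node. The mean heavy chain junction was 42.3 and 42.1 bases in the WT dCLN and sCLN against 42.5 in the iLN, and 42.4 and 42.2 against 42.4 in 5xFAD, with an exact permutation p of 0.333. Junctions with no N bases, the untemplated additions of terminal transferase that are lacking in cells made around birth, were 1.19% and 1.54% against 2.26% of WT cells with a D call, a difference of -0.892 percentage points (-1.69 to -0.198). In 5xFAD mice they were 1.84% and 1.36% against 1.37%, a difference of 0.235 (-0.465 to 0.844).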

How the data were processed

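Single-cell B cell receptor libraries were made with a 5' V(D)J kit from hashed cell suspensions pooled in equal numbers, per the labels' protocols. The submitters' processing notes list mm10 as build and, as tools, Cell Ranger 6.0.1 and Seurat 4.1.0, without saying which step each served. The germline set is not given in the sources used here. Each table lists assembled contigs, with UMI and read counts and the V identity as a fraction, all deposited by the authors and named in the file headers. All contigs used were productive.

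From these, cells with exactly 1 heavy chain were kept, and no doublet caller was run. V mismatches were counted from the aligned and germline sequences, leaving out gaps, and not taken from the deposited identity. D calls naming several genes were kept as joint names. For V calls naming several genes, heavy or light, the first gene was used. Such heavy chain V calls were 2.56% to 3.17% of cells in the 6 libraries. Shares have exact 95% intervals, and a count of 0 has a limit of 3 counts. Difference intervals combine these by square-and-add. Clones join junctions of the same V, J and length by single linkage. Scripts used Python 3.11.15, pandas 2.3.3, numpy 2.4.6 and scipy 1.17.1, and were tested on simulated data. The named genes were the most used and those past the fold or, where few passed, those with the largest mean log2 ratio among genes with all 4 cervical libraries on one side, plus lists of families and innate-like V genes. Of 31 named V and D genes 30 were found in the annotation, all but IGHD3-3. Members and lists were chosen with earlier results of these data known. The mask of fixed light chain mismatches, the motif and CDR counts, the search for relatives, the overlap index and the counting-error spread were chosen after the data were seen.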

Additional observations from a re-analysis of the deposited data

Results flagged for a closer look

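The switched share of the 5xFAD sCLN, 2.90%, stood apart from the other 3 cervical libraries, which lay between 4.1% and 4.23%. The check looks at the gaps of the lowest and of the highest of 4 values and marks about 1 group in 20 by chance. It was run over all 21 measures. The 5xFAD sCLN is also the cervical library with the fewest cells, 2356. Without either sCLN the mean difference to the iLN over genotypes was 2.79 percentage points, and without either dCLN 2.25.

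The IgD share of unswitched cells, cervical minus inguinal, was 3.87 percentage points in WT and -2.64 in 5xFAD. Both WT cervical libraries lay above their iLN and both 5xFAD ones below it. The difference between the genotypes was not tested. The median number of heavy chain UMIs was 9 in the WT dCLN and 13 in the 5xFAD dCLN. After weighting to 1 distribution of UMIs the differences were 2.12 in WT and 0.203 in 5xFAD, so that the means no longer had opposite signs. The weighted 5xFAD dCLN still lay below its iLN, and the 5xFAD sCLN lay above it.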

How the results depend on the processing

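Of 201 pairs of a result and an alternative, over 28 results, 187 kept the direction of the mean over genotypes or the count. 22 results did so in every alternative run, among them the switched, IgG2b, IgG2c and mutated shares. Within 1 genotype the sign turned in 19 of 284 differences under an alternative, among them with at least 3 heavy chain UMIs for IgG1 of switched cells in 5xFAD (2.29 percentage points) and IgG2b of switched cells in WT (2.40), and with UMI weighting for IgD in 5xFAD (0.203). The sign of the mean difference over genotypes turned for the IGHV1 family with the dCLN alone (-0.366 percentage points), for IGHD2 with exactly 1 light chain (0.300), with the dCLN alone (0.0573) and with D alignments of at least 8 bases (0.253), and for lambda with the sCLN alone (0.0308). The cause was not tested. The number of IGHV genes past the fold was 1 with the sCLN alone (IGHV10-1, lower) and 4 at a lower fold threshold, a ratio of 5 to 4. For light chain V genes it was 2 with the dCLN alone, 2 in unswitched cells under 1% mutation, 3 at the lower fold threshold and 0 at a mean share of 1% or more, which leaves out IGKV14-100. For D genes it was 0 with the sCLN alone, with D alignments of at least 8 bases and at a mean share of 1% or more. The mean log2 ratio of IGKV14-100 ranged from 1.04 to 1.48.

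No paired analysis was possible because each node and genotype has 1 library, and the number in its label pairs no animals across nodes. Genotype was kept as the stratum of the exact test. With 1 library per node and genotype, node and library cannot be told apart, and intervals cover counting error only. The subclass shares of the iLN rest on 25 and 31 switched cells.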

Other observations

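The library that mixes all nodes and both genotypes lay above all 6 libraries in mutated unswitched cells, 37 of 2269 or 1.63% (1.15 to 2.24). Switched cells made up 6.93% (5.95 to 8.01) of its 2439 cells with a constant region call, and IgG2c 3.57% (2.87 to 4.38). Both shares also lay above those of all 6 libraries, a difference that was not tested. IgG2c was 51.5% (43.7 to 59.2) and IgG1 2.37% (0.649 to 5.95) of the 169 switched cells of this library. Its IGHV1 share was 53.5% (51.5 to 55.5) and its IGHD1 share 33.2% (31.3 to 35.2), both below those of the 6 libraries. D families IGHD7 to IGHD10 were called in 47 of its 2296 cells with a D call and in none of the 6 libraries. The sources used here do not say whether the mixed library was annotated with the same germline set. If it was not, its mutated and gene shares are not on the same scale as those of the 6 libraries, which was not tested.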
